A study of Mus musculus with 9 samples.

Results

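The interleukin-1 family is a group of inflammatory cytokines with their receptors, and 8 of its genes were followed here: the ligands Il1a, Il1b, Il18 and Il33, the antagonist Il1rn, and the receptor chains Il1r1, Il1rap and Il1rl1. They were chosen by name, with Il1a known beforehand to show one of the largest differences among 19938 genes between the culture matrices, so the differences of Il1a are given as a description, with no test. A probe set named for the gene was used for 6 of the 8; Il1r1 and Il1rl1 carried no such name in the array annotation used here and were not analysed here. All groups used one mouse mammary tumor cell line, D2.OR, a common model of disseminated cells that stay quiescent. Total RNA was taken from 3D cultures, and 3 arrays each were titled as fibrillar collagen I, as non-fibrillar collagen I and as Matrigel (an extract of basement membrane). The growth label of the 3 Matrigel arrays names non-fibrillar collagen I, so that group rests on its titles alone, and any batch that goes with its separate accession numbers cannot be told apart from the matrix. The labels do not state whether the arrays of a group are separate cultures; the p-values therefore rest on a spread between arrays that may be technical.

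Interleukin-1 alpha, the product of Il1a, and interleukin-1 beta, the product of Il1b, bind the same receptor chain, Il1r1, which then recruits the accessory chain Il1rap and signals through Myd88 and the Irak kinases to NF-kB. The alpha precursor is active as made and is released from damaged cells, while the beta and interleukin-18 precursors are cut by caspase-1; the antagonist Il1rn occupies the receptor without bringing in the accessory chain. Interleukin-33 signals through Il1rl1, also called ST2, with the same accessory chain, and in epithelia it is kept in the nucleus as an alarm signal.

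The promoter sequences of Il1a and Il33 are shown because these are the ligands whose levels varied most between arrays. Each is the 250 bases before a RefSeq transcript start, read on the gene's strand in build GRCm38.p6, with capitals marking matches, on either strand, to TATAAA, to the AP-1 motif TGANTCA or to the C/EBP motif TTGCNNAA. The Il1a window is chr2:129309973-129310222 on the minus strand, and the Il33 windows, from its upstream and downstream starts, are chr19:29924863-29925112 and chr19:29945540-29945789 on the plus strand.
Il1a: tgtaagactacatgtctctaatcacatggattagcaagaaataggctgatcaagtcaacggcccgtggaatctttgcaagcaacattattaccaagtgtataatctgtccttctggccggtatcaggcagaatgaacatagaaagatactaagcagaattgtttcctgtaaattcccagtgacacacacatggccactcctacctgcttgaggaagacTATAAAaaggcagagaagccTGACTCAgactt
Il33, upstream start: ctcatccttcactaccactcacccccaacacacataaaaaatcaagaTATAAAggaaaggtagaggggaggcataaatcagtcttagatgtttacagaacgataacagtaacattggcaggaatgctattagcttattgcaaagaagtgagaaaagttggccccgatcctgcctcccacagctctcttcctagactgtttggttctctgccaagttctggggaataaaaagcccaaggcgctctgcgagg
Il33, downstream start: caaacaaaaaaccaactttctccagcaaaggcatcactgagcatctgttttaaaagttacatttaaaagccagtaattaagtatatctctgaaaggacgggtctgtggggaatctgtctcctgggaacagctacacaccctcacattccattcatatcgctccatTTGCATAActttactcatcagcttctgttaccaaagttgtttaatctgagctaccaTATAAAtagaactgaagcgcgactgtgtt
The Il1a window held TATAAA from 32 to 27 bases and TGACTCA from 12 to 6 bases before the start. The downstream Il33 window held TATAAA from 29 to 24 bases and TTGCATAA from 85 to 78 bases before it, and the upstream window held TATAAA from 203 to 198 bases before it. Of 32851 windows of the same length, 12.4% held TATAAA, 6.75% the AP-1 motif and 9.56% the C/EBP motif. The kappaB consensus was also searched; 5.0% of windows held it, and it was in none of these 3 windows or of the 13 windows of the 8 genes. A match is a run of letters in a window, not a shown binding site.

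Il1a was highest in non-fibrillar collagen, intermediate in fibrillar collagen and lowest in Matrigel. On the log2 scale of the deposited values, its level in non-fibrillar collagen was 10.22, 10.00 and 9.90 in replicates 1, 2 and 3. Fibrillar collagen gave 9.46, 8.87 and 8.70, and Matrigel gave 8.47, 7.81 and 7.94. The 3 groups did not overlap, and replicate 1 was the highest array of each group. Between the collagens 25.2% of all genes had groups without overlap. Against Matrigel the share was 20.4% for fibrillar and 28.4% for non-fibrillar collagen. In bulk RNA a smaller share of expressing cells and less transcript per cell cannot be told apart.

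**Figure D1:**
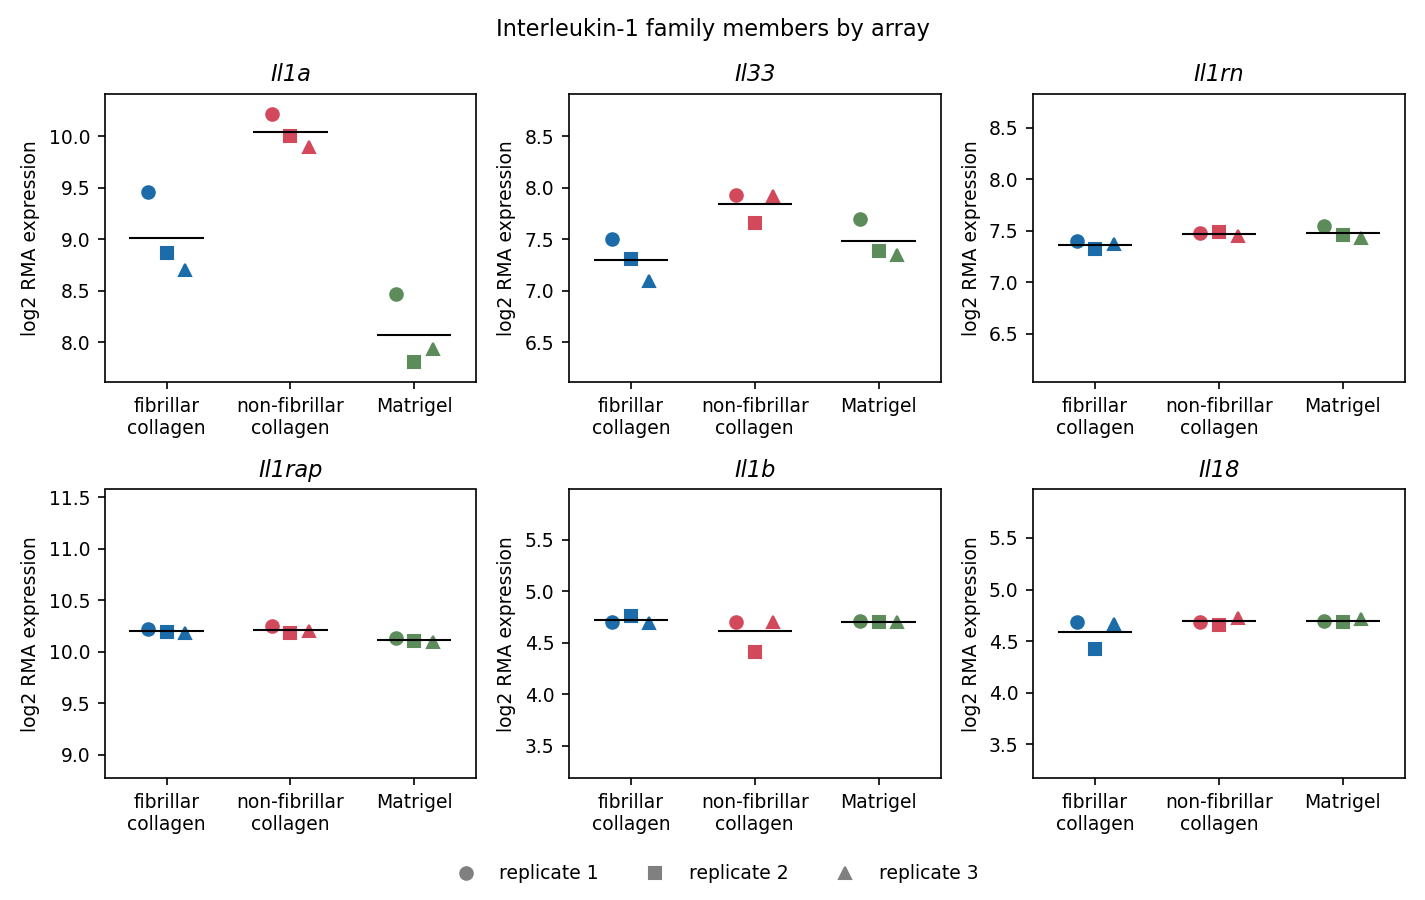
Expression of the 6 measured members on each array (log2 RMA units, every panel spanning the same range), with points for single arrays, marker shapes for replicate numbers and black lines for group means of 3 arrays. Il1a separates into 3 levels, from 10.04 in non-fibrillar collagen to 8.07 in Matrigel, while Il1rn, Il1rap, Il1b and Il18 lie nearly flat.

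The group means of Il1a were 10.04 ± 0.162 (SD, n = 3) in non-fibrillar collagen, 9.01 ± 0.395 in fibrillar collagen and 8.07 ± 0.352 in Matrigel. Il1a was thus 2.04-fold lower in the fibrillar than in the non-fibrillar form (log2 -1.03 ± 0.195, limma standard error), 1.92-fold higher in fibrillar collagen than in Matrigel (0.94 ± 0.209) and 3.91-fold higher in non-fibrillar collagen than in Matrigel (1.97 ± 0.209). By size these differences ranked 6, 10 and 2 among all genes, and against Matrigel no gene had a larger increase in either collagen. These comparisons share groups and are not independent of each other. Taken between arrays of the same number, the collagen difference was -0.76, -1.13 and -1.19, and the difference of non-fibrillar collagen from Matrigel was 1.75, 2.20 and 1.96. Leaving out 1 array at a time moved the collagen difference between -1.25 and -0.87, and the difference of non-fibrillar collagen from Matrigel between 1.84 and 2.17.

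Il1a also varied more between arrays of a group than nearly every other gene. Its pooled SD within groups was 0.319 log2 units, at percentile 99.9 of all genes, against a median of 0.074. Il33 followed at 0.184, percentile 97.6, whereas Il1rap, at 0.025, lay at percentile 2.9. The limma standard errors also draw on the spread of all genes. Those printed for Il1a and Il33 are therefore smaller than their own arrays alone would give. 

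None of the other 5 measured members passed the test in any comparison. In limma with Benjamini-Hochberg adjustment over 19938 genes and a threshold of 0.05, 0 of 5 passed for fibrillar against non-fibrillar collagen (2 at an unadjusted p under 0.05), where 6.40% of all genes passed. For fibrillar collagen against Matrigel 0 of 5 passed (1 unadjusted), against 3.82% of genes, and for non-fibrillar collagen against Matrigel 0 of 5 (2 unadjusted), against 13.8%.

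Il33 came closest. Its level was 7.50, 7.31 and 7.10 in fibrillar collagen, 7.93, 7.66 and 7.92 in non-fibrillar collagen, and 7.70, 7.39 and 7.35 in Matrigel. The collagen groups did not overlap, as for 25.2% of all genes, and the Matrigel arrays overlapped both. Il33 was at -0.53 ± 0.119 in fibrillar against non-fibrillar collagen (adjusted p = 0.051), a 1.45-fold difference with a 95% interval from -0.82 to -0.25. The call turned on the setting: adjusted p lay from 0.017 to 0.036 under 5 other settings, was 0.052 with replicate number as a block, and lay from 0.062 to 0.165 with 1 array left out. Against Matrigel, Il33 was at 0.36 ± 0.124 in non-fibrillar collagen (adjusted p = 0.094; 0.039 without Matrigel replicate 1 and 0.047 without genes of a mean under 6) and at -0.18 ± 0.124 in fibrillar collagen (adjusted p = 0.498). In the order of its levels, Matrigel and fibrillar collagen were therefore not separated beyond their spread.

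Il1b, the other ligand of the interleukin-1 receptor, showed no such pattern. Its probe set read 4.70, 4.76 and 4.69 in fibrillar collagen, 4.70, 4.41 and 4.70 in non-fibrillar collagen and 4.71, 4.70 and 4.70 in Matrigel. The mean over 9 arrays lay at percentile 21.7 of all genes, and 5 arrays held the identical value of 4.70, which stood in 48 probe sets of the table. No detection calls were used here, and readings this dim set no level for the transcript. In RefSeq no protein-coding gene lies between Il1a and Il1b. The Il1b difference between the collagens was 0.11 ± 0.084 (95% interval -0.09 to 0.32, adjusted p = 0.493).

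Il18, an epithelial cytokine that induces interferon gamma, was equally dim. It read 4.68, 4.42 and 4.67 in fibrillar collagen, 4.68, 4.66 and 4.72 in non-fibrillar collagen and 4.69, 4.68 and 4.71 in Matrigel. All groups overlapped, with its mean at percentile 21.5 and differences from -0.10 to -0.01 (adjusted p from 0.454 to 0.979); the last of these, non-fibrillar collagen against Matrigel, changed sign under both other scalings.

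The antagonist Il1rn differed little while Il1a spanned 3.91-fold. It read 7.40, 7.32 and 7.37 in fibrillar collagen, 7.48, 7.49 and 7.45 in non-fibrillar collagen and 7.54, 7.46 and 7.43 in Matrigel. The fibrillar arrays were the 3 lowest, by 1.08-fold against either other group (-0.11 ± 0.037, 95% interval -0.20 to -0.02, adjusted p = 0.146 against non-fibrillar collagen; -0.12 ± 0.043, adjusted p = 0.192 against Matrigel). Groups without overlap were seen for 25.2% and 20.4% of all genes in these comparisons. Between non-fibrillar collagen and Matrigel the 95% interval of Il1rn ran from -0.10 to 0.09 (adjusted p = 0.983), and the sign of its difference depended on the scaling.

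Il1rap, the accessory chain shared by the interleukin-1 and interleukin-33 receptors, was bright and nearly level. It read 10.22, 10.19 and 10.18 in fibrillar collagen, 10.25, 10.18 and 10.20 in non-fibrillar collagen and 10.13, 10.11 and 10.10 in Matrigel. The Matrigel arrays were the 3 lowest, by 0.08 ± 0.037 against fibrillar collagen (adjusted p = 0.286) and 0.09 ± 0.037 against non-fibrillar collagen (adjusted p = 0.140). Groups that do not overlap were seen for 20.4% and 28.4% of all genes in these comparisons. The collagens differed by -0.01 ± 0.036 (95% interval -0.10 to 0.07, adjusted p = 0.868), with the sign turned after quantile normalization again.

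**Figure D2:**
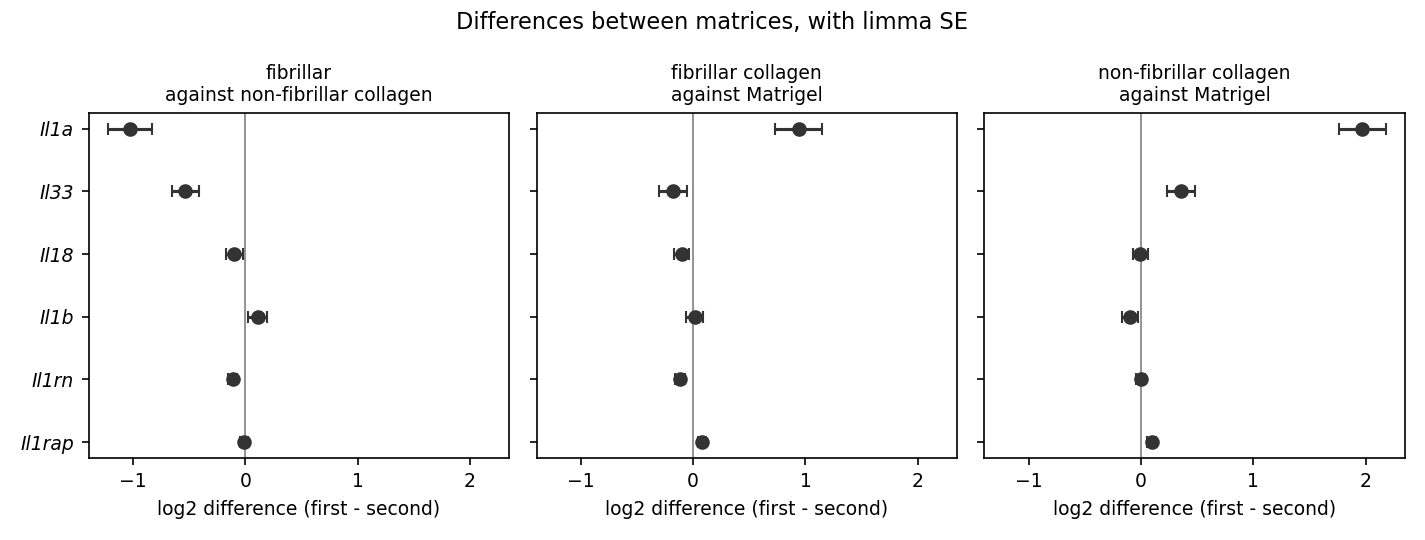
Log2 difference of each measured member in the 3 comparisons, the first-named matrix minus the second, as points with limma standard errors (n = 3 arrays per group). Il1a lies at -1.03, 0.94 and 1.97, Il33 at -0.53, -0.18 and 0.36, and the other members within 0.12 of zero.

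Other genes of the pathway were taken from 5 lists, chosen with earlier results of these data known. Their shares of calls beside those of all genes are therefore a description. None of 6 further ligands and antagonists passed in any comparison (limma; 0, 1 and 3 at an unadjusted p under 0.05 in the order of comparisons above), and 5 of the 6 had means under 6. Of 7 further receptors 1, 1 and 2 passed in that order, 14.3%, 14.3% and 28.6% of the list beside 6.40%, 3.82% and 13.8% of all genes. They were Il18rap, the accessory chain of the interleukin-18 receptor, and Sigirr, an inhibitory receptor of the family. Of the 7, 6 had means under 6, Il18rap (5.87) among them, so that Il18rap is not tested where genes under 6 are left out.

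Il18rap followed the order of Il1a. It read 6.37, 6.55 and 6.18 in non-fibrillar collagen, 5.72, 5.64 and 5.81 in fibrillar collagen and 5.51, 5.59 and 5.46 in Matrigel. Its 3 levels did not overlap, as held for 25.2%, 20.4% and 28.4% of all genes in the single comparisons, in the order above. It was lower in the fibrillar than in the non-fibrillar collagen (-0.64 ± 0.097, 1.56-fold, adjusted p = 0.019) and 1.80-fold higher in non-fibrillar collagen than in Matrigel (0.85 ± 0.087, adjusted p = 2.7e-04); fibrillar collagen against Matrigel did not pass (0.20 ± 0.087, adjusted p = 0.259). Sigirr was higher than in Matrigel in non-fibrillar collagen (0.33 ± 0.046, 1.26-fold, adjusted p = 0.0014) and in fibrillar collagen (0.22 ± 0.046, adjusted p = 0.029), and between the collagens it was at -0.11 ± 0.049 (adjusted p = 0.273).

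Of 16 genes for the maturation and release of these cytokines, 5 had means under 6. Casp1 changed in all 3 comparisons, with an order that differed from that of Il1a. Casp1 encodes caspase-1, the protease that cuts the beta and interleukin-18 precursors. It read 8.0, 7.73 and 7.91 in Matrigel, 7.27, 7.44 and 7.51 in non-fibrillar collagen and 6.97, 7.09 and 6.96 in fibrillar collagen. It was 1.32-fold lower in the fibrillar than in the non-fibrillar form (-0.40 ± 0.071, adjusted p = 0.029), 1.83-fold lower in fibrillar collagen than in Matrigel (-0.87 ± 0.080, adjusted p = 5.5e-04) and 1.39-fold lower in non-fibrillar collagen than in Matrigel (-0.47 ± 0.080, adjusted p = 0.0040). S100a13, a protein that takes part in the release of interleukin-1 alpha, was lower than in Matrigel in both collagens (-0.32 ± 0.072, adjusted p = 0.041 in fibrillar; -0.29 ± 0.072, adjusted p = 0.025 in non-fibrillar). Casp8 was higher in non-fibrillar collagen than in Matrigel (0.33 ± 0.097, adjusted p = 0.049). In all 1 of 16 passed between the collagens, 2 of 16 for fibrillar collagen against Matrigel and 3 of 16 for non-fibrillar collagen against Matrigel. These were 6.25%, 12.5% and 18.8% of the list beside 6.40%, 3.82% and 13.8% of all genes, with list medians of 0.0011, 0.0033 and -0.018 beside 0.0080, 0.0028 and 0.00061 over all genes.

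Of 23 measured signalling genes below the receptor, 0 passed between the collagens (limma; 2 at an unadjusted p under 0.05), 1 for fibrillar collagen against Matrigel (8 unadjusted) and 2 for non-fibrillar collagen against Matrigel (6 unadjusted). These were 0%, 4.35% and 8.70% of the list, beside 6.40%, 3.82% and 13.8% of all genes. Of the 23, 2 had means under 6. Against Matrigel other settings gave 0 to 2 calls in fibrillar and 2 to 5 in non-fibrillar collagen. Nfkbie, an inhibitor of NF-kB, was higher than in Matrigel in fibrillar collagen (0.39 ± 0.085, adjusted p = 0.033) and in non-fibrillar collagen (0.39 ± 0.085, adjusted p = 0.014). Irak2, a kinase of the receptor complex, was lower in non-fibrillar collagen than in Matrigel (-0.33 ± 0.066, adjusted p = 0.0086). Between the collagens the smallest p belonged to the NF-kB inhibitor Nfkbia, at 0.15 ± 0.048 (adjusted p = 0.129). For non-fibrillar collagen against Matrigel the call of Nfkbia turned on the setting (limma adjusted p = 0.055, from 0.025 to 0.201 over all settings).

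Among 30 genes that interleukin-1 and NF-kB are known to induce, 1 was higher and 3 were lower in the fibrillar than in the non-fibrillar form. That was 13.3% of the list beside 6.40% of all genes, of which 2.71% were higher and 3.69% lower. Of the 30, 10 had means under 6. The split over all genes moved with the scaling, from 541 higher and 736 lower to 421 and 968 after median centring and 640 and 612 after quantile normalization again. With 1 array left out 0 to 2 of the 30 passed. The lower ones were the cytokines Il6 (-0.70 ± 0.124, 1.62-fold, adjusted p = 0.029) and Lif (-0.54 ± 0.103, 1.45-fold, adjusted p = 0.034) and the chemokine Ccl2 (-0.80 ± 0.160, 1.74-fold, adjusted p = 0.039, named after its values were seen), and the higher one was the macrophage growth factor Csf1 (0.36 ± 0.053, 1.28-fold, adjusted p = 0.017). The list median was -0.048, beside 0.0080 over all genes. Il6 read 5.65, 5.34 and 5.36 in fibrillar collagen, 6.31, 5.92 and 6.22 in non-fibrillar collagen and 6.21, 5.51 and 5.89 in Matrigel, where it overlapped both collagens. Its mean was 5.82, so Il6 is not tested where genes under 6 are left out.

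For non-fibrillar collagen against Matrigel, 5 of the 30 were higher and 3 lower, 26.7% of the list beside 13.8% of all genes (6.75% higher and 7.07% lower), with a median of 0.056 beside 0.00061. Over all genes 1345 were higher and 1410 lower, and 1841 and 1092 after median centring. Lif (0.77 ± 0.091, 1.71-fold, adjusted p = 5.7e-04) and the neutrophil growth factor Csf3 (0.79 ± 0.097, 1.73-fold, adjusted p = 6.8e-04) were higher, and the collagenase Mmp13 was lower (-0.78 ± 0.125, 1.72-fold, adjusted p = 0.0029). Lif read 7.24, 7.18 and 7.25 in non-fibrillar collagen, 6.91, 6.49 and 6.64 in fibrillar collagen and 6.52, 6.44 and 6.38 in Matrigel. Csf3 read 7.62, 7.54 and 7.51 in non-fibrillar collagen, 7.30, 7.19 and 6.85 in fibrillar collagen and 6.80, 6.74 and 6.76 in Matrigel. For both genes the group means stood in the order seen for Il1a. For Lif the fibrillar and Matrigel arrays overlapped, and that difference did not pass (limma adjusted p = 0.213, from 0.081 to 0.382 over all settings). For Csf3 the 3 groups did not overlap, as held for 25.2%, 20.4% and 28.4% of all genes in the single comparisons. The differences of Csf3 in fibrillar collagen from the other groups did not pass. They were -0.44 ± 0.113 against non-fibrillar collagen (limma adjusted p = 0.073) and 0.35 ± 0.097 against Matrigel (limma adjusted p = 0.086). The former passed with replicate number as a block (limma adjusted p = 0.047) and lay from 0.021 to 0.208 over all settings. The latter was 0.0052 without fibrillar replicate 3, 0.043 without genes of a mean under 6, and up to 0.222 over all settings.

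For fibrillar collagen against Matrigel, 1 of the 30 was higher and 1 lower, 6.67% beside 3.82% of all genes (1.45% higher and 2.37% lower), with a median of 0.019 beside 0.0028. Other settings gave 1 to 6 calls in the list, and over all genes 289 higher and 473 lower became 373 and 366 after quantile normalization again. The chemokine Ccl7 was lower (-0.56 ± 0.087, 1.47-fold, adjusted p = 0.0083) and Csf1 higher (0.24 ± 0.052, adjusted p = 0.035). Genes of the list therefore went both ways in each comparison. Cxcl1 and Ptgs2, common readouts of interleukin-1, were at -0.09 ± 0.068 and 0.04 ± 0.065 between the collagens (limma adjusted p = 0.519 and 0.749). These 2 were also named after their values were seen. Cxcl1 was bright, with a mean of 9.44 over 9 arrays. Ptgs2 was dim, with a mean of 4.81, so its small difference cannot show whether the transcript changed.

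**Figure D3:**
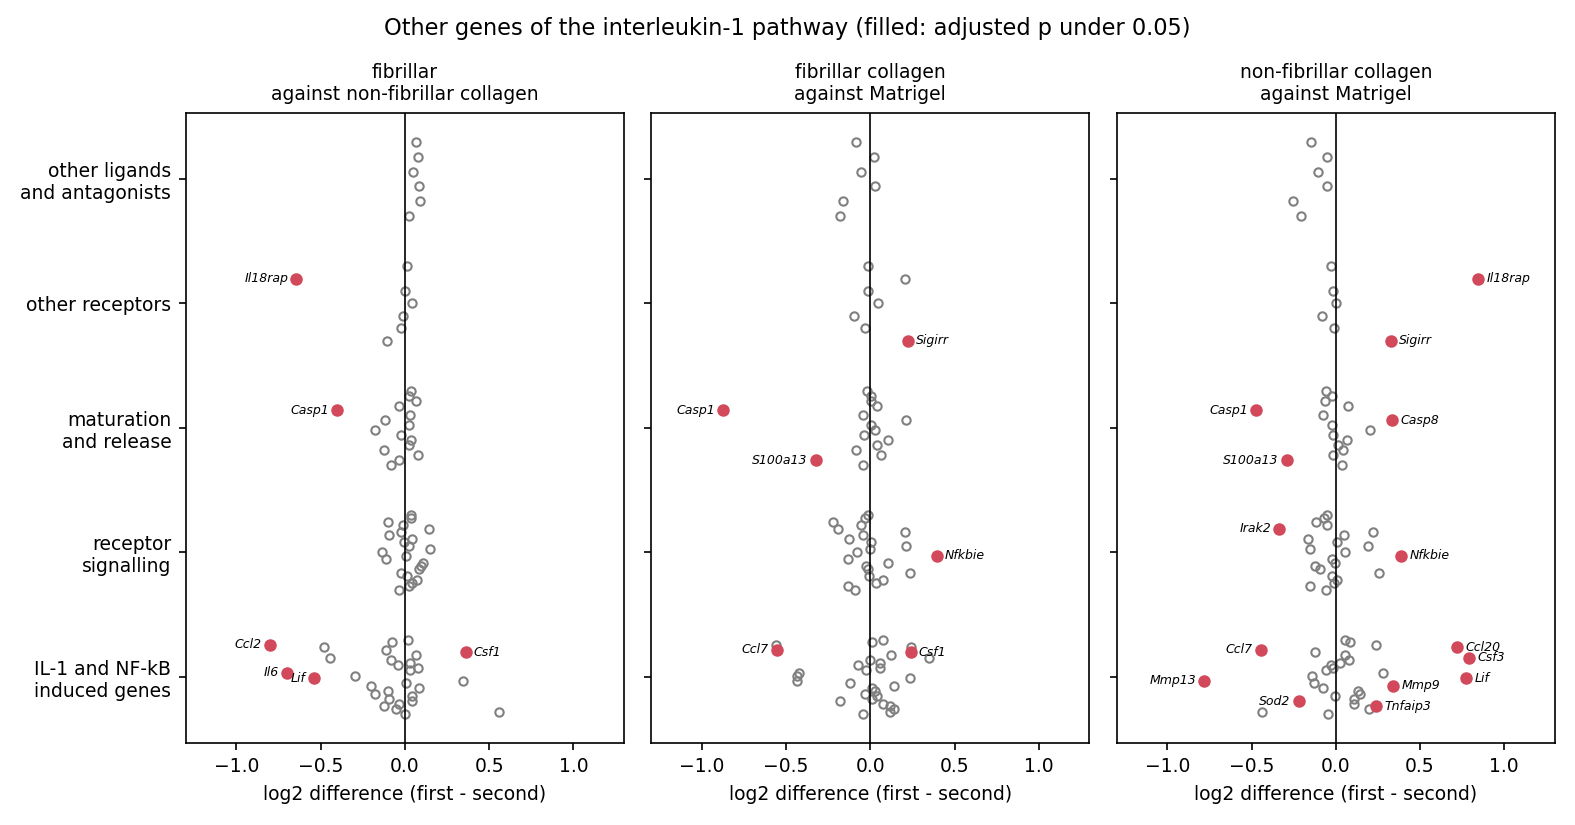
Log2 differences of the measured genes of 5 pathway lists in the 3 comparisons, the first-named matrix minus the second, with one point per gene and filled, named points for genes with an adjusted p under 0.05. Casp1 lies left of zero in all 3 panels, and Il18rap lies at -0.64 between the collagens and at 0.85 for non-fibrillar collagen against Matrigel.

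Many of these calls did not hold when single arrays were left out. Between the collagens the adjusted p rose above 0.05 for Ccl2 with any array left out (adjusted p up to 0.114), Casp1 with any left out but non-fibrillar replicate 1 (up to 0.115), Csf1 with any left out but non-fibrillar replicate 2 (up to 0.076), Il18rap with any left out but non-fibrillar replicate 3 (up to 0.082), and Il6 and Lif with any left out but fibrillar replicate 1 (up to 0.117 and 0.130). For fibrillar collagen against Matrigel, Csf1 lost its call with any array left out (up to 0.107), Sigirr with any left out but fibrillar replicate 2 (up to 0.088), S100a13 with any left out but fibrillar replicate 3 (up to 0.130) and Nfkbie with any left out but Matrigel replicate 1 (up to 0.110), while Casp1 and Ccl7 kept it throughout. For non-fibrillar collagen against Matrigel, Casp8 lost its call with any array left out but Matrigel replicate 1 (up to 0.169), S100a13 without Matrigel replicate 1 or 2 or non-fibrillar replicate 1 or 2 (up to 0.094) and Nfkbie without non-fibrillar replicate 3 (0.055). Il18rap, Sigirr, Casp1, Irak2, Lif, Csf3 and Mmp13 kept their calls there whichever array was left out. S100a13 also lost its call in fibrillar collagen after either other scaling and in non-fibrillar collagen after median centring, and Casp8 lost its own with quantile normalization repeated or only the 6 arrays compared.

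The genes whose profile over the 9 arrays was most like that of Il1a were the mitotic kinase Pbk (Pearson's r = 0.991), the histone deacetylase Hdac1 (0.989), the mitotic checkpoint kinase Bub1 (0.989), the histone variant H2az1 (0.987) and the focal adhesion protein Tes (0.987). All had their highest mean in non-fibrillar collagen and their lowest in Matrigel, from 8.96 to 8.37 for Pbk and from 9.69 to 9.10 for Bub1, spans smaller than that of Il1a. Of 18702 genes compared, 103 had an r of at least 0.95. The arrays are shared by all genes and fall into 3 groups, so such correlations are a description. Among the members, r with Il1a was 0.873 for Il1rap, 0.674 for Il33, 0.125 for Il1rn, 0.043 for Il18 and -0.396 for Il1b.

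**Figure D4:**
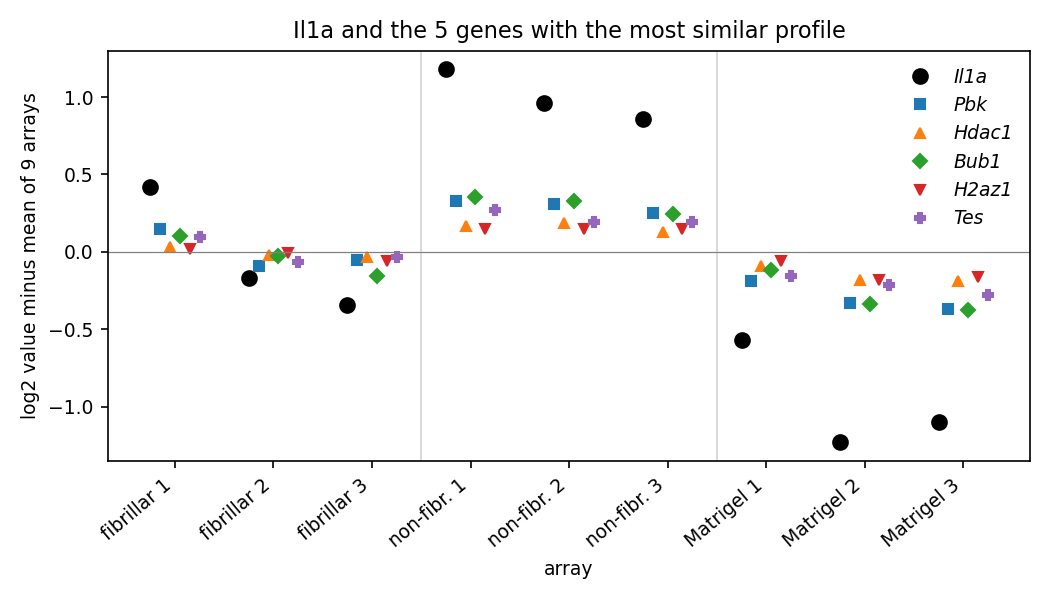
Value on each array minus the gene's mean over 9 arrays (log2 units), for Il1a (black) and the 5 genes with the highest Pearson correlation to it. All are above zero on the 3 non-fibrillar arrays and below zero on the 3 Matrigel arrays, and Il1a has the widest span.

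Of 13 epithelial and mammary tumor cell markers, Krt8 (13.12 to 13.33), Krt18 (12.60 to 12.92) and the mesenchymal filament Vim (13.25 to 13.37) were bright on all arrays, and 4 had means under 6, among them Krt19 (5.14 to 5.45). The mean of the list lay from 8.64 to 8.67 in fibrillar collagen, 8.65 to 8.68 in non-fibrillar collagen and 8.52 to 8.56 in Matrigel. The keratin Krt7 had the order of Il1a and passed in all 3 comparisons, with means of 10.67 in non-fibrillar collagen, 10.37 in fibrillar collagen and 9.47 in Matrigel. It was at -0.30 ± 0.034 between the collagens (adjusted p = 0.0092; 0.050 without fibrillar replicate 3), 0.90 ± 0.039 for fibrillar collagen against Matrigel (adjusted p = 8.7e-06) and 1.20 ± 0.039 for non-fibrillar collagen against Matrigel (adjusted p = 5.6e-07). The basal keratin Krt14 ran the other way and was lower than in Matrigel in both collagens (-0.17 ± 0.039, adjusted p = 0.041 in fibrillar, up to 0.111 with 1 array left out; -0.30 ± 0.039, adjusted p = 9.8e-04 in non-fibrillar). Krt18 was higher than in Matrigel in both (0.23 ± 0.040, adjusted p = 0.014, 0.059 without Matrigel replicate 2; 0.28 ± 0.040, adjusted p = 0.0015), and Epcam (0.28 ± 0.051, adjusted p = 0.0058) and Cldn7 (0.18 ± 0.048, adjusted p = 0.034, up to 0.115 with 1 array left out) in non-fibrillar collagen. In all 1, 3 and 5 of the 13 passed, 7.69%, 23.1% and 38.5% of the list beside 6.40%, 3.82% and 13.8% of all genes, and their part in the results was not tested.

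Interleukin-1 alpha is also made by macrophages. Of 14 macrophage markers 12 had means under 6, among them the defining Ptprc (4.72 to 5.12), Adgre1 (3.82 to 4.09) and Csf1r (4.72 to 4.84), and the mean of the list lay from 5.24 to 5.28 in fibrillar collagen, 5.19 to 5.23 in non-fibrillar collagen and 5.25 to 5.32 in Matrigel. In the order of comparisons above, 14.3%, 7.14% and 14.3% of the list passed, beside 6.40%, 3.82% and 13.8% of all genes. Cd68, also a general lysosomal protein, was bright and ran opposite to Il1a, from 7.56 to 7.67 in non-fibrillar collagen to 8.87 to 9.07 in Matrigel. It passed in all 3 comparisons (limma adjusted p = 0.0067, 0.0068 and 1.1e-05 in that order). Cd14 was lower in the fibrillar than in the non-fibrillar form (-0.37 ± 0.079, adjusted p = 0.047, 0.079 to 0.133 with 1 array left out) and higher in non-fibrillar collagen than in Matrigel (0.28 ± 0.073, adjusted p = 0.033, up to 0.116 with 1 array left out). Of 7 endothelial and 9 lymphocyte and mast cell markers, 5 and 8 had means under 6. The endothelial marker Kdr also ran opposite to Il1a, with means of 5.73 in non-fibrillar collagen and 6.20 in Matrigel (limma adjusted p = 0.0055, up to 0.023 with 1 array left out). Between the collagens its adjusted p was 0.052 (0.019 to 0.162 over all settings). In the order above, 0%, 0% and 14.3% of the endothelial list passed, beside 6.40%, 3.82% and 13.8% of all genes. Among 10 fibroblast markers 3 had means under 6. Col1a1 (8.55 to 8.73) was not dim and passed in no comparison. Pdgfra was bright and also ran opposite to Il1a, from 10.12 to 10.44 in non-fibrillar collagen to 11.11 to 11.36 in Matrigel. In the order of comparisons above, 10%, 0% and 10% of this list passed, beside 6.40%, 3.82% and 13.8% of all genes. The part of Cd68, Cd14, Kdr and Pdgfra in the results was not tested.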

How the data were processed

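Per the submitters' processing notes, the authors made the deposited log2 expression values with Affymetrix Power Tools and RMA, which corrects background, quantile-normalizes and summarizes per probe set; the sources used here do not give versions, settings or whether the 9 arrays were run together. Its quantile step can mask a shift common to most genes. The platform annotation named 1 gene for 21789 of 35512 probe sets; the one with the highest mean represents a gene, which left 19938 genes, with no filter on dim genes.

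limma 3.58.1 in R 4.3.3 (lmFit, eBayes, two-sided, Benjamini-Hochberg over all genes) was fitted to the 6 collagen arrays, and to all 9 arrays for comparisons with Matrigel. The fit was tested on simulated data with independent noise on each array, so that test does not cover arrays that deviate together. Same-numbered collagen arrays deviated together (r = 0.221, 0.143 and 0.242 across genes), so the numbers were taken to pair them, which the titles do not state. For Matrigel not every pair passed 0.1. Unless the block is named, p-values come from fits without it. Precision is limited by the 3 arrays per group.

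The members and lists were chosen with earlier results of these data known. Named list genes come from the 3 with the smallest p per list and comparison, and most of those that did not pass are not named. The 5 genes most correlated with Il1a were taken without predicted models. Ccl2, Cxcl1, Ptgs2 and all named cell type markers stand outside these rules and were chosen after their values were seen. Of 139 list entries 135 were measured; Il36a, Il36b, Il36g and Il36rn were matched under older symbols. Promoters come from RefSeq (GRCm38.p6), where all 8 members matched. Alternatives were a replicate block, quantile normalization again, median centring, a minimum mean of 6, averaged probe sets, a trended robust prior, other arrays in the fit and leaving out each array.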

Additional observations from a re-analysis of the deposited data

How the results depend on the processing

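The directions of Il1a and Il33 held in all 3 comparisons under every alternative run. The number of the other 5 members that passed between the collagens rose from 0 to 1, Il33, after quantile normalization again, centring on array medians, leaving out genes with a mean under 6, with a trended robust prior and with all 9 arrays in the fit; it was 0 whichever array was left out. For non-fibrillar collagen against Matrigel it rose to 1, again Il33, with genes under 6 left out and with the replicate block (adjusted p = 0.026), and was 0 to 1 with 1 array left out; for fibrillar collagen against Matrigel it was 0 throughout. With the replicate block 1285, 1020 and 3244 genes passed, beside 1277, 762 and 2755 without it. In the collagen comparison the numbers were taken to pair the arrays. Among genes named here, the block changed the calls of Csf3 (limma adjusted p = 0.047, beside 0.073) and Kdr (0.026, beside 0.052) in that comparison. Against Matrigel in fibrillar collagen the block ended the calls of Csf1 (0.053) and Krt14 (0.054). There it also brought in calls of Ccl2 (limma adjusted p = 0.025), Il6 (0.028), Pdgfra (0.038) and Mmp13 (0.040). Csf3 passed there as well (0.050, under the threshold before rounding). For non-fibrillar collagen against Matrigel the block brought in the call of Nfkbia (limma adjusted p = 0.047, beside 0.055). Leaving out genes under 6 gave 2111 calls between the collagens and 1211 for fibrillar collagen against Matrigel, and using only the 6 arrays compared gave 460 for the latter and ended the calls of Sigirr, Nfkbie and S100a13 there. With 1 array left out the calls numbered 150 to 569, 353 to 513 and 1814 to 2492.

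Signs that turned belonged to differences near zero. After quantile normalization again these were Il1rap between the collagens (0.022) and, for non-fibrillar collagen against Matrigel, Il18 (0.027) and Il1rn (0.019); after median centring Il18 (0.030) and Il1rn (0.033) turned in that comparison. With 1 array left out Il1rap turned between the collagens (-0.027 to 0.0079), Il1b for fibrillar collagen against Matrigel (-0.0069 at the lowest), and Il18 (-0.020 to 0.0061) and Il1rn (-0.025 to 0.027) for non-fibrillar collagen against Matrigel. The cause was not tested. Il1b and Il18 are too dim for these arrays to set a level.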
